A study of Caenorhabditis elegans with 4 samples.

Results

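The str, srh and sri genes are 3 families of predicted chemoreceptors of the nematode Caenorhabditis elegans, and their transcripts were followed in whole larvae of the first larval stage (L1). Members were the genes named str, srh or sri with a number whose mean over the 4 libraries was at least 1 FPKM (fragments per kilobase of transcript and relative to all mapped fragments, a measure of level per length). This rule gave 62 members, made up of 23 str, 27 srh and 12 sri genes, of the 463 genes of these families in the deposited table and of 15202 genes that reached 1 FPKM. The other 401 genes of the families lay below the threshold, and 42 of them were listed at 0 in every library. The members were thus selected on their mean FPKM over the same 4 columns that the comparison reads, and the families were picked with earlier results of these data known. Counts and medians over the members are therefore descriptions.

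Total RNA of whole animals was sequenced in 2 libraries from dve-1(uf171) mutants and 2 libraries from wild-type animals. Per the labels, both genotypes were fed the E. coli strain OP50 at 25 degrees Celsius and were synchronized and collected as L1 larvae. The gene dve-1 encodes a homeobox factor that acts when mitochondria are stressed. The labels name 1 mutant allele, and each library was made from many pooled larvae. Nothing in the labels ties the replicates to separate cultures. The p-values below then reflect only how far these libraries lie apart, which may be technical. In bulk RNA of whole animals, fewer cells of a type and less RNA per cell cannot be told apart.

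Chemoreceptors of this kind are proteins with 7 membrane-spanning helices that are thought to couple to G proteins in the cilia of sensory neurons. The genome holds very many of them, most are made in only 1 or a few pairs of neurons, and a single neuron makes many. The str, srh and sri families belong to the Str superfamily together with srd, srj and odr-10, the receptor for the odorant diacetyl. Many of these genes sit in tandem arrays on chromosome V. Their expression in individual neurons is known in C. elegans to follow feeding state, pheromone and developmental stage. For most members no ligand is known to the sources used here, so the genes are described below by family.

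In the RefSeq table of assembly WBcel235, which has ce11 coordinates, the families hold 596 annotated genes, of which 122 are pseudogenes. All 62 members were annotated there as protein-coding. Of the members 44 lie on chromosome V, 12 on II, 5 on IV and 1 on I. The sri members differ from the rest in this: 7 of 12 are on II, against 5 of 27 srh members and 0 of 23 str members. Proteins deduced from the Ensembl gene models had median lengths of 345 residues for str, 330 for srh and 323 for sri members, and 61 of the 62 models had a coding sequence; the exception was sri-73.

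These were low-abundance transcripts. The mean FPKM of a member ranged from 1.00 (str-160) to 8.78 (srh-237), with a median of 1.59, against a median of 13.3 FPKM over all genes tested. All members together made up 79.9 and 73.4 ppm of the summed FPKM in the mutant libraries, against 44.1 and 42.95 in the wild-type libraries. The summed FPKM of the whole table was 2.25e+06 and 2.05e+06 in the mutant and 2.39e+06 and 2.35e+06 in wild type. Fragment counts are not part of the table. Steps between low values gave rough depths of 17200000 and 16800000 fragments for the mutant libraries and 23200000 and 21800000 for the wild-type libraries, and at these depths the median member rests on about 33.2 and 33.9 fragments in the mutant and 27.2 and 26.3 in wild type. Counting error alone would then be 17.2% to 19.5% of the value of a median member in 1 library.

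Each family had a higher summed level in both mutant libraries than in either wild-type library. The 23 str members summed to 61.0 and 51.8 FPKM in the mutant, against 32.2 and 35.9 FPKM in wild type, a ratio of means of 1.66. The 27 srh members summed to 87.0 and 73.8 FPKM in the mutant, against 57.1 and 48.9 FPKM in wild type, a ratio of 1.52. The 12 sri members summed to 31.4 and 25.0 FPKM in the mutant, against 16.3 and 16.2 FPKM in wild type, a ratio of 1.73. In all 3 families the first mutant library was above the second, and the groups did not overlap. With 2 libraries against 2, the exact two-sided permutation test cannot go below 0.33, which is the p of each family. Expressed as a share of each library's summed FPKM, an alternative chosen after seeing the data, the ratios were 1.82 for str, 1.67 for srh and 1.90 for sri. Median-ratio scaling lowered the differences instead. The log2 ratios of the sums were then 0.62 for str, 0.50 for srh and 0.68 for sri, against 0.72, 0.60 and 0.78 without it.

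**Figure D1:**
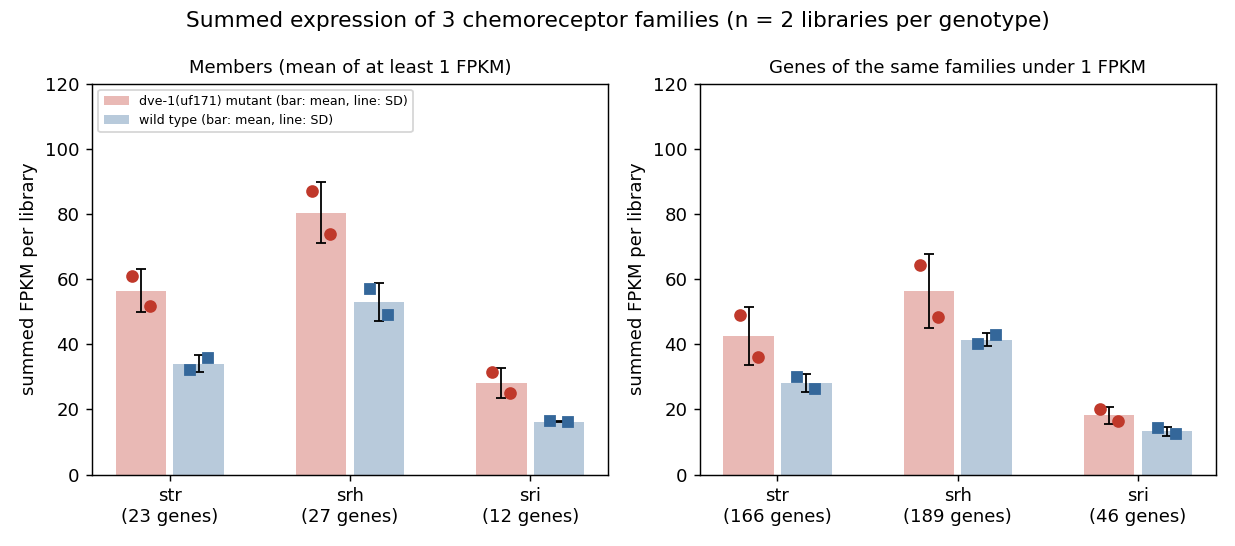
Summed FPKM (vertical axis) of the str, srh and sri genes in each library, for members on the left and for genes of the same families under 1 FPKM on the right; points are libraries, bars are means of 2 libraries per genotype and lines their SD. In both panels and for each family the 2 mutant points lie above the 2 wild-type points, for str members at 61.0 and 51.8 against 32.2 and 35.9.

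Gene by gene, 42 of the 62 members had both mutant values higher than either wild-type value, and 0 members had both lower. Over all genes tested, 28.1% had both mutant values above and 15.9% had both below. By family this was so in 16 of 23 str, 16 of 27 srh and 10 of 12 sri members. The log2 fold change of FPKM + 1 (mutant over wild type) was above 0 in 58 of 62 members (55 with median-ratio scaling), against 60.7% of all genes tested. Its median was 0.46 for str, 0.41 for srh and 0.51 for sri, beside 0.09 for all genes tested and 0.15 for the 4785 protein-coding genes with means from 1 to 10 FPKM. Of those protein-coding genes, 66.7% had a log2 fold change above 0. Both mutant values were above both wild-type values in 32.5% of them and below in 12.7%. With no filter on low values, over 168 str, 196 srh and 57 sri genes, the medians were 0.12, 0.092 and 0.15, beside 0.075 for all genes. The first mutant library held the highest value of 38 members and the second that of 18, against 4 and 2 in the wild-type libraries.

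No single member passed the test. By limma with Benjamini-Hochberg adjustment over all 15202 genes, 0 members were called higher, where 0.303% of all genes were, and 0 were called lower, where 1.36% were. An unadjusted limma p under 0.05 was reached by 4 members (str-176, str-112, srh-167 and srh-78), or 6.45%, against 11.9% of all genes. Among protein-coding genes with means from 1 to 10 FPKM this share was 7.98%. The lowest adjusted limma p of a member was 0.313 (str-176). The standard error of a member's log2 fold change had a median of 0.34 and ranged from 0.15 to 0.57, and 22 members had a log2 fold change within 1 standard error of 0.

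**Figure D2:**
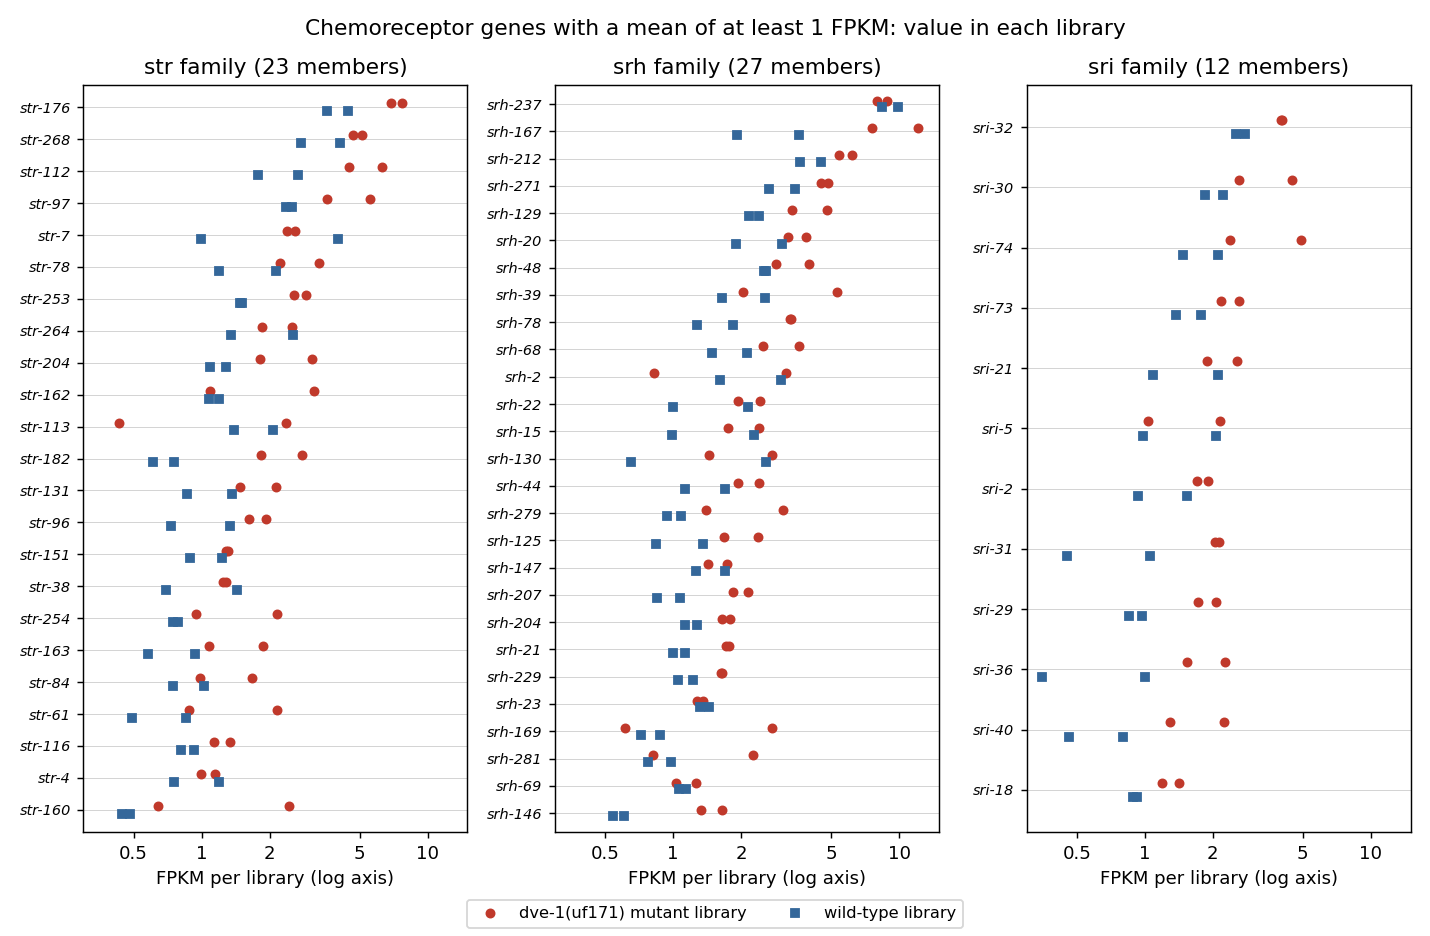
FPKM of every member in each of the 4 libraries (horizontal log axis), by family and ordered from the highest mean at the top; red circles are mutant libraries and blue squares wild-type libraries. In 42 of the 62 members both circles lie to the right of both squares, and in 0 members do both lie to the left.

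Among str genes, the most abundant member was str-176 (chromosome IV, 8460999 to 8463816), with 6.87 and 7.70 FPKM in the mutant and 3.59 and 4.43 FPKM in wild type. The genotypes did not overlap, and the log2 fold change was 0.73 (SE 0.18, limma adjusted p = 0.313). The predicted protein of str-176 has 539 residues, the longest among the members. Next came str-268 (chromosome IV, 17144109 to 17150971), with 5.11 and 4.69 FPKM in the mutant and 4.09 and 2.77 FPKM in wild type, where the wild-type libraries differed more from each other than the mutant ones. The gene str-112 (chromosome V, 7136327 to 7138420) had the largest log2 fold change of FPKM + 1 in the family, with 6.30 and 4.48 FPKM in the mutant and 2.66 and 1.78 FPKM in wild type, a ratio of 2.43. It came to 0.99 (SE 0.28, limma adjusted p = 0.364).

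The gene str-97 (chromosome V, 16153855 to 16155211) stood at 5.55 and 3.59 FPKM in the mutant and 2.51 and 2.36 FPKM in wild type. The less abundant str-182 (chromosome V, 10231821 to 10233430) had 1.83 and 2.79 FPKM in the mutant and 0.753 and 0.610 FPKM in wild type, a ratio of 3.39, the highest ratio of the str members (log2 fold change 0.96, SE 0.34, limma adjusted p = 0.440). Only its mutant mean reached 1 FPKM, so it passed the filter through the mutant alone. Its values did not overlap between genotypes, although the mutant libraries themselves differed. By contrast, str-7 (chromosome V, 16097824 to 16099541) was spread mostly within wild type: it had 2.39 and 2.58 FPKM in the mutant, between the 0.991 and 4.01 FPKM of the wild-type libraries. Of the 7 str members whose genotypes overlapped, str-113 alone had a log2 fold change below 0 (-0.31, SE 0.57), with 0.432 and 2.35 FPKM in the mutant and 1.39 and 2.07 FPKM in wild type. The str members not named had mean levels of at most 2.22 FPKM (str-78).

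Among srh genes, the most abundant member was not higher in the mutant. The values of srh-237 (chromosome V, 17090379 to 17091714) were 7.99 and 8.85 FPKM in the mutant and 9.91 and 8.39 FPKM in wild type, so the genotypes overlapped (log2 fold change -0.10, SE 0.15). The gene with the largest difference of all members was srh-167 (chromosome V, 16333712 to 16335063), at 12.2 and 7.57 FPKM in the mutant and 1.91 and 3.59 FPKM in wild type. The ratio was 3.59 and the log2 difference 1.54 (SE 0.37, limma adjusted p = 0.316), with wide gaps between libraries of the same genotype. Without srh-167 the srh members summed to 74.9 and 66.2 FPKM in the mutant and 55.2 and 45.3 FPKM in wild type, a ratio of 1.40.

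Further abundant srh genes had smaller differences. The gene srh-212 (chromosome V, 3595148 to 3597152) had 5.41 and 6.21 FPKM in the mutant and 4.52 and 3.63 FPKM in wild type. For srh-271 (chromosome V, 2618950 to 2621979) the mutant values were 4.85 and 4.51 FPKM and the wild-type values 2.66 and 3.48 FPKM. For srh-129 (chromosome V, 5142262 to 5143885) they were 4.80 and 3.37 FPKM in the mutant and 2.18 and 2.40 FPKM in wild type. None of these 3 overlapped between genotypes, and their limma adjusted p were 0.505, 0.491 and 0.477. For srh-271 this holds for the sum of its 2 isoform values but for neither alone. The mutant libraries matched closely, and the wild-type libraries less so, for srh-78 (chromosome V, 217147 to 219513), with 3.28 and 3.32 FPKM in the mutant and 1.84 and 1.27 FPKM in wild type (log2 fold change 0.76, SE 0.25, limma adjusted p = 0.417). Near the threshold, srh-146 (chromosome V, 2914248 to 2916172) had 1.65 and 1.33 FPKM in the mutant and 0.605 and 0.544 FPKM in wild type. It too was a member through the mutant alone, as its wild-type mean was below 1 FPKM. Besides srh-237, the log2 fold change was below 0 for srh-2 (-0.23, SE 0.56) and srh-23 (-0.04, SE 0.30), each within 1 standard error of 0.

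The log2 fold changes of all 12 sri members lay above 0, from 0.04 (sri-5) to 0.84 (sri-31). The most abundant, sri-32 (chromosome II, 3152976 to 3154483), had 4.06 and 4.02 FPKM in the mutant and 2.77 and 2.53 FPKM in wild type (log2 fold change 0.47, SE 0.18, limma adjusted p = 0.470). Its replicates were close in both genotypes. The gene sri-30 (chromosome II, 3046175 to 3048154) had 4.48 and 2.61 FPKM in the mutant and 1.85 and 2.22 FPKM in wild type. For sri-74 (chromosome II, 2580820 to 2583144) the values were 4.89 and 2.37 FPKM in the mutant and 2.103 and 1.48 FPKM in wild type. In both, the first mutant library was far above the second, and the second was just above wild type.

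Larger ratios were found among lower sri genes. In sri-31, sri-36 and sri-40, however, only the mutant mean reached 1 FPKM, so they passed the filter through the mutant alone. The gene sri-31 (chromosome II, 3051003 to 3052376) had 2.13 and 2.05 FPKM in the mutant and 1.05 and 0.454 FPKM in wild type, a ratio of 2.78. The gene next to sri-74, sri-36 (chromosome II, 2583732 to 2585593), had 2.26 and 1.54 FPKM in the mutant and 1.00 and 0.350 FPKM in wild type, a ratio of 2.82. For sri-40 (chromosome II, 3177963 to 3180478) the values were 1.29 and 2.24 FPKM in the mutant and 0.801 and 0.461 FPKM in wild type, a ratio of 2.79. The limma adjusted p of these 3 were 0.4999, 0.555 and 0.572. On chromosome V, sri-73 (564391 to 566084) had 2.18 and 2.61 FPKM in the mutant and 1.37 and 1.78 FPKM in wild type, without overlap. The 2 sri members whose genotypes overlapped were sri-21 (chromosome V, 3549853 to 3551306), with 2.55 and 1.88 FPKM in the mutant and 1.09 and 2.12 FPKM in wild type, and sri-5.

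**Figure D3:**
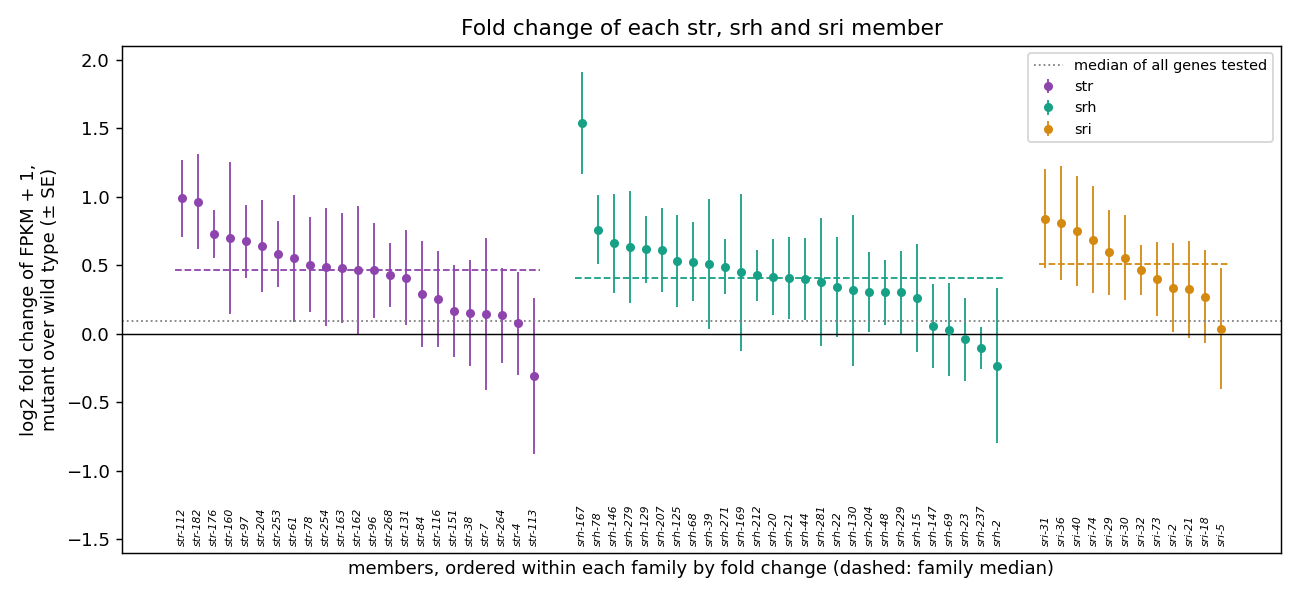
Log2 fold change of FPKM + 1, mutant over wild type (vertical axis), for each member with its limma standard error, ordered within the str, srh and sri families; dashed lines are family medians (0.46, 0.41 and 0.51) and the dotted line is the median of all genes tested (0.09). Only srh-167 lies above 1, and 4 members lie below 0.

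The threshold on the mean bears on these counts, because a gene that is high in 1 genotype can pass through that genotype alone. In 17 of the 62 members (8 str, 4 srh and 5 sri) only the mutant mean reached 1 FPKM, in 0 members only the wild-type mean did, and in 45 both did. When genes of the families were instead taken by their wild-type mean reaching 1 FPKM, a choice made after seeing the data, there were 47 genes. Of these, 29 had both mutant values above both wild-type values and 2 had both below, while of the 14491 genes of any kind with such a wild-type mean 27.2% had both above and 2522 had both below. Their median log2 fold change was 0.45 for str, 0.37 for srh and 0.40 for sri, against 0.06 for all such genes. Just inside the threshold stood, by their means, str-160 (1.00 FPKM), str-4 (1.02), srh-146 (1.03), srh-69 (1.12), sri-18 (1.10) and sri-40 (1.20). Just outside it stood str-125 (0.971 FPKM), str-168 (0.954), srh-171 (0.9996), srh-218 (0.991), sri-45 (0.995) and sri-25 (0.981).

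Genes of the families under 1 FPKM were also higher as a sum. The 401 genes summed to 133 and 100.998 FPKM in the mutant and 84.4 and 81.3 FPKM in wild type, a ratio of means of 1.41. By family the ratio was 1.51 for 166 str, 1.36 for 189 srh and 1.37 for 46 sri genes, each without overlap between genotypes. Of the 359 genes above 0 in at least 1 library, 108 (30.1%) had both mutant values above both wild-type values and 33 (9.19%) had both below, against 21.5% and 11.8% of 5052 other genes under 1 FPKM. At these levels most values rest on few fragments and single genes cannot be read.

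The well-studied genes of the families, known in C. elegans from reporter strains to be made in few head neurons, were all under the threshold. The gene str-1, which marks the AWB olfactory neurons, was listed at 0.924 and 0.236 FPKM in the mutant and 0.292 and 0.105 FPKM in wild type. The gene str-3, which marks the ASI neurons, was the highest of them, at 1.58 and 0.552 FPKM in the mutant and 0.711 and 0.358 FPKM in wild type. In both, only the first mutant library stood clear of the wild-type values. The AWC marker str-2 was listed at 0 in all 4 libraries. The ADL genes srh-220 and srh-234 were listed at 0.429 and 0.0684 FPKM and at 0.643 and 0.462 FPKM in the mutant, against 0.0986 and 0.160 FPKM and 0.202 and 0.601 FPKM in wild type.

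For the ADF marker srh-142 the mutant values were 0.320 and 0.0762 FPKM and the wild-type values 0.103 and 0.390 FPKM. The ASJ-expressed srh-11 had 0.629 and 0.298 FPKM in the mutant and 0.293 and 0.421 FPKM in wild type, and str-44, expressed in AWA, had 1.01 and 0.159 FPKM in the mutant and 0.244 and 0.632 FPKM in wild type. These 3 genes overlapped between genotypes. The last pair was nearly undetected: sri-14, which acts in the ASH neurons in avoidance of concentrated diacetyl, was listed at 0 in both mutant libraries, against 0.0740 and 0.133 FPKM in wild type. Similarly low was str-217, which is needed in ADL for the response to the repellent DEET: it was listed at 0 except for 0.0488 FPKM in the first wild-type library.

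A few str genes below the threshold were lower in the mutant. On chromosome V, str-154 (2557797 to 2560739) was listed at 0 in both mutant libraries and at 1.80 and 1.95 FPKM in wild type. Also on V, str-267 (2449518 to 2452460) was listed at 0 in both mutant libraries and reached 1.06 and 0.935 FPKM in wild type. Between them, str-258 (2509636 to 2513268) was likewise listed at 0 in the mutant, with 0.996 and 0.742 FPKM in wild type. These 3 were the only genes of the families listed at 0 in both mutant libraries with at least 0.5 FPKM in both wild-type libraries, and they were named after their values were seen. In the fit without a filter on low values str-154 was called lower (limma adjusted p = 0.0482) and the other 2 were not (0.0719 and 0.123). Over all genes that fit called 269 lower and 78 higher. An exact 0 in such a table can be a failed estimate, so these values are given only as listed. By these coordinates str-154 and str-267 span equal lengths, and str-258 a longer one. Whether the 3 genes are close copies that share reads could not be checked without their sequences, and shared reads would change what the zeros and the call of str-154 mean.

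Several members are neighbours on the chromosome. Allowing at most 10 kb between members, 17 of the 62 fell into 7 runs, and in 5 of the runs all genes lie on 1 strand. On chromosome II, sri-29, sri-30 and sri-31 lie within 8054 bases (3044323 to 3052376), and all 3 had both mutant values above both wild-type values, with log2 fold changes from 0.56 to 0.84. The pair sri-74 and sri-36 lies within 4774 bases (2580820 to 2585593) on the same chromosome and did likewise (0.69 and 0.81). So did str-254 and str-97 on chromosome V, which lie within 3234 bases (16151978 to 16155211), with 0.49 and 0.67. Of the genes in the 7 runs, sri-29, sri-31, sri-36, str-254 and srh-281 became members through their mutant mean alone. The filter thus favoured higher mutant values in them.

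The run of 4 srh genes on chromosome V, made of srh-23, srh-22, srh-20 and srh-21 (4921102 to 4928257), was mixed. The last of them, srh-21, had 1.71 and 1.77 FPKM in the mutant and 1.13 and 0.998 FPKM in wild type, while srh-23 had 1.35 and 1.27 FPKM in the mutant and 1.44 and 1.32 FPKM in wild type. The neighbours srh-22 and srh-23 share exon sequence positions in the annotation, so reads there cannot be assigned to 1 of them. In all, 12 of the 17 members in runs and 30 of the 45 others had both mutant values above both wild-type values. Over all genes tested this share was 28.1%. Both groups of members include genes that passed the filter through the mutant mean alone.

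**Figure D4:**
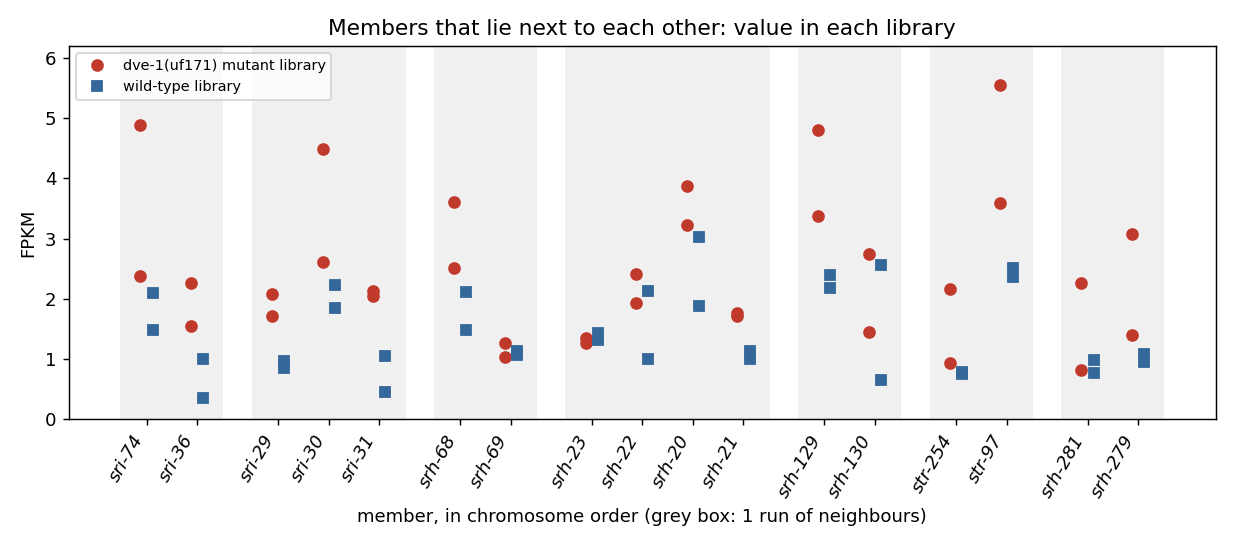
FPKM (vertical axis) of the 17 members that lie within 10 kb of another member, in chromosome order, each grey box being 1 run of neighbours; red circles are mutant libraries and blue squares wild-type libraries. In the runs sri-29 to sri-31, sri-74 with sri-36, and str-254 with str-97, every circle lies above every square of its gene, whereas srh-23 and srh-69 show no such gap.

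Members of these families can share reads with close copies, and the labels do not say how multiply aligned reads were handled. No 2 members of a family had the same values in all 4 libraries (0 pairs within 0.5%). Below the threshold, srh-57 and srh-305 did have the same values, at 0 in both mutant libraries and 0.0801 and 0.346 FPKM in wild type. Of the members, 12 had more than 1 accession and 11 had exons that overlap another annotated gene, and strand is not stated. Isoform values were unstable in some: of the 2 accessions of sri-73, 1 had 2.18 and 0 FPKM in mutant libraries 1 and 2, against 0.423 and 1.78 FPKM in wild type. The other had 0 and 2.61 FPKM in the mutant, against 0.951 and 0 FPKM in wild type. For sri-73, srh-271 and str-268 the genotypes did not overlap in the sum, but they overlapped in each isoform value. Among the 42 members with 1 accession and no overlapping exon, a group formed after seeing the data, all 42 log2 fold changes were above 0. The lowest, of srh-69, was 0.03 (SE 0.34). Both mutant values were above both wild-type values in 33 (78.6%), against 28.1% of all genes tested, and 0 had both below, against 15.9%. All 4 members with a log2 fold change below 0 (str-113, srh-2, srh-23 and srh-237) thus had several accessions or overlapping exons. Some of the 42, such as str-182, srh-146 and sri-36, became members through their mutant mean alone. The filter favoured higher mutant values in them.

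Other chemoreceptor families had similar values. Of their 149 genes that reached 1 FPKM, 140 (94.0%) had a log2 fold change above 0, and the median was 0.47. Both mutant values were above both wild-type values in 98 (65.8%) and below in 1 (0.67%). Over all genes tested these shares were 60.7%, 28.1% and 15.9%. None was called, and 21 (14.1%) had an unadjusted limma p under 0.05, against 11.9% of all genes. Within the Str superfamily the median was 0.60 for 15 srd and 0.54 for 5 srj genes, and 0.25 for 3 srm genes. Across all 17 of these other families, medians ran from 0.19 (sru, 7 genes) to 0.76 (srb, 4 genes), and each lay above the median of all genes. Summed over all 815 of their genes in the table, these families stood at 1148 and 971 FPKM in the mutant and 716 and 657 FPKM in wild type, a ratio of 1.54. That sum has no filter, unlike the sums of the members. Over all their genes in the table, the ratio was 1.59 for str, 1.45 for srh and 1.57 for sri. For the 3 families together it was 1.52. No test set the str, srh and sri members against these families.

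Genes of chemosensory signalling were compared as a list of G protein subunits, cyclic nucleotide and TRPV channels, guanylyl cyclases, trafficking factors and their partners. Of 31 tested, 0 were called, 2 (6.45%) had an unadjusted limma p under 0.05 and 27 (87.1%) had a log2 fold change above 0. Both mutant values were above both wild-type values in 17 (54.8%) and below in 2 (6.45%). The median log2 fold change was 0.27. Over all genes tested 1.66% were called, and the other shares were 11.9%, 60.7%, 28.1% and 15.9%. The most abundant were egl-4, a cGMP-dependent protein kinase of sensory neurons, with 132 and 143 FPKM in the mutant and 88.96 and 121 FPKM in wild type, and eat-16, a regulator of G protein signalling, with 76.6 and 73.3 FPKM in the mutant and 57.2 and 60.3 FPKM in wild type. The diacetyl receptor gene odr-10 was counted in this list, although it encodes a receptor of the Str superfamily. Named after its values were seen, odr-10 had 13.2 and 10.03 FPKM in the mutant and 7.203 and 8.47 FPKM in wild type. A second list held known regulators of chemoreceptor expression, such as the kinase gene kin-29 and the calcium and TGF-beta pathways. Of 29 tested, 0 were called and 3 (10.3%) had an unadjusted limma p under 0.05. Both mutant values were above both wild-type values in 7 (24.1%) and below in 5 (17.2%), near the shares over all genes. The median of the list was -0.03. Its most abundant genes were unc-43, which encodes the calcium/calmodulin-dependent kinase II, with 429 and 519 FPKM in the mutant and 504 and 541 FPKM in wild type, and daf-7, the TGF-beta ligand of ASI, with 120.4 and 118 FPKM in the mutant and 119.5 and 130.3 FPKM in wild type.

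Markers of cells and tissues were set beside the receptors. Pan-neuronal genes (14 of 15 listed were in the table) had a median log2 fold change of 0.14 and summed to 1677 and 1504 FPKM in the mutant and 1313 and 1570 FPKM in wild type, so the genotypes overlapped. Genes of ciliated sensory neurons (16 of 20) had a median of 0.19, with 13 above 0 (81.25%, against 60.7% of all genes tested). In 8 of them (50%) both mutant values were above both wild-type values, against 28.1% of all genes tested. In 3 (18.75%) both were below, against 15.9%. The 16 genes summed to 427 and 512 FPKM in the mutant and 571 and 603 FPKM in wild type. That sum is dominated by the kinesin gene klp-11, at 310 and 409 FPKM in the mutant and 478 and 490 FPKM in wild type. Amphid glia markers (5 of 6) summed to 62.4 and 59.6 FPKM in the mutant and 58.8 and 121 FPKM in wild type. Body wall muscle markers (9 of 10) summed to 3054 and 2908 FPKM in the mutant and 2924 and 2746 FPKM in wild type, and intestinal markers (10 of 10) to 942 and 1499 FPKM in the mutant and 1637 and 1494 FPKM in wild type. Germ line markers (10 of 10) summed to 49.1 and 54.1 FPKM in the mutant and 52.6 and 65.2 FPKM in wild type. Single genes listed at 0 in most libraries moved some sums: mir-228 of the glia list was above 0 only in the second wild-type library, at 26.3 FPKM, and cpr-6 of the intestine list only in the first mutant library, at 43.01 FPKM.

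The libraries of 1 genotype differed most in genes of the hypodermis and cuticle (10 of 10), several of which are switched on and off with the moulting cycle. They summed to 52.7 and 214 FPKM in the mutant and 480 and 27.1 FPKM in wild type. All 62 members together summed to 179 and 151 FPKM in the same mutant libraries and 106 and 101.1 FPKM in the same wild-type libraries. The part of cuticle stage, neuronal content or depth in the receptor values was not tested, and any handling that differed between the genotypes cannot be told apart from genotype.

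**Figure D5:**
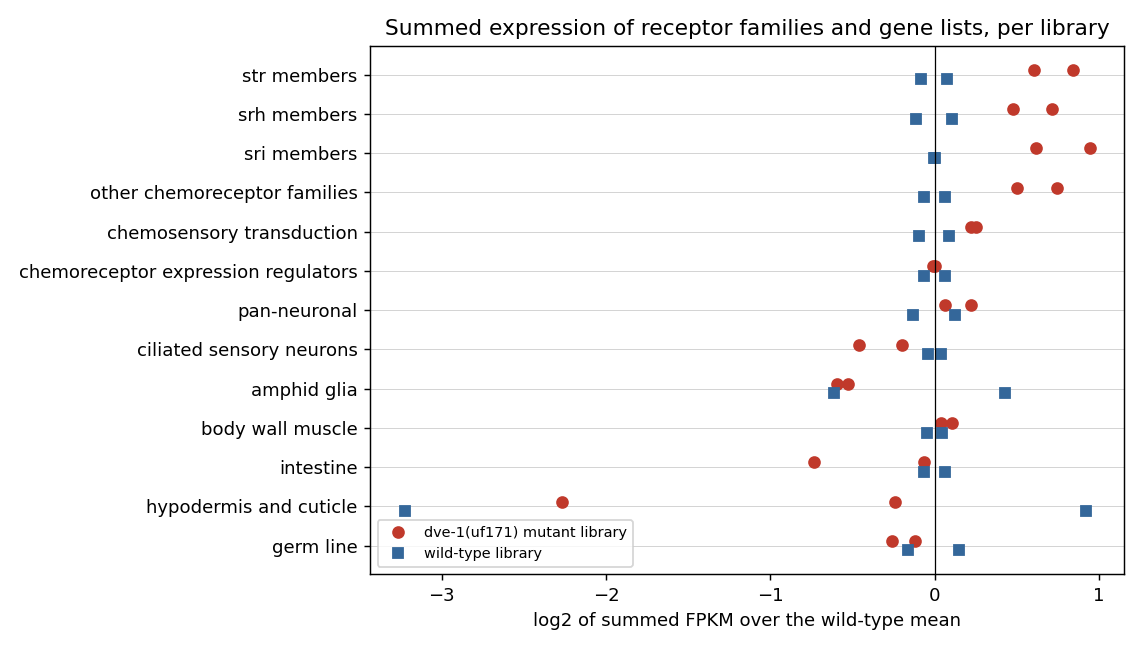
Log2 of the summed FPKM of each library over the wild-type mean (horizontal axis) for the members of each family, the other chemoreceptor families and the gene lists described in the text; red circles are mutant libraries and blue squares wild-type libraries. The other chemoreceptor families enter with all their genes in the table, without the filter that the members passed. The receptor families and the chemosensory signalling list lie to the right in both mutant libraries, and ciliated sensory neuron genes lie to the left. Pan-neuronal and body wall muscle genes lie near the wild-type values, and hypodermis and cuticle genes are spread within each genotype.

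Without the first mutant library the str median log2 fold change was 0.28, against 0.46 with all 4 libraries, a difference of over 1.5 times. Leaving out 1 library leaves a single library in that genotype, and the spread then comes from the other genotype alone, so the p-values of these fits say nothing about stability. In these fits the members with an unadjusted limma p under 0.05 numbered 6, 16, 11 and 12 of 62 without the first mutant, second mutant, first wild-type and second wild-type library, beside 10.2%, 15.9%, 12.1% and 11.03% of all genes. In the same order, all-gene calls numbered 332 higher and 37 lower, 425 and 42, 107 and 643, and 89 and 678, beside 46 higher and 206 lower with all 4 libraries.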

How the data were processed

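The deposited values are FPKM, 1 per RefSeq accession and library, for 52491 accessions. Per the submitters' processing notes the authors used TopHat2 and Cufflinks with genome build ce11; the sources used here give no versions, strand or handling of reads with several alignments. Accessions were matched without version to a RefSeq table of WBcel235 (47645 matched, giving 41614 genes; 4846 did not) and FPKM were summed per gene. Gene models came from Ensembl for the same assembly. Groups and replicate numbers came from the sample titles.

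The 15202 genes whose mean reached 1 FPKM were tested on log2(FPKM + 1) with limma 3.58.1 in R 4.3.3 (intensity trend, two-sided, Benjamini-Hochberg over all genes, threshold 0.05). Fold changes on this scale understate those of low genes. The step was tested on simulated data. Depths were estimated by fitting whole fragments to transcripts under 0.3 FPKM; 32.7% to 42.2% of them came within 0.1 of a whole fragment, so depths are rough and no count test was run. For each family, members were named if called, if among the 5 most abundant, if among the 3 largest rises or falls without overlap, or if their place of expression is known. Members, lists and tests were chosen with earlier results of these data known.

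Other pseudocounts, filters, scalings and limma settings, a replicate block and each library left out were tried. Replicate numbers were not shown to pair the libraries.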

Additional observations from a re-analysis of the deposited data

How the results depend on the processing

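No member was called in either direction by limma (0 and 0) under any setting except that, with no filter on low values, 1 gene of the families, str-154, was called lower among 421 tested. Over all genes that setting called 269 lower and 78 higher. The family medians kept their sign in every setting tried. A smaller pseudocount raised them: with 0.1 the str, srh and sri medians were 0.72, 0.60 and 0.66, and with 0.01 they were 0.76, 0.62 and 0.68, which follows from the scale itself, since adding 1 compresses ratios near 1 FPKM. With no filter they were 0.12, 0.092 and 0.15, beside 0.075 for all genes, over many genes near 0. At a mean of at least 5 FPKM, 1 str gene (0.73) and 2 srh genes (0.72) were left, no sri gene, and the str summed log2 ratio was 0.87. Median-ratio scaling gave an sri median of 0.43 and lowered the median of all genes to 0.01. In choices made after seeing the data, the sri median was 0.59 with 9 members of 1 accession and no overlapping exon and 0.40 by the wild-type mean, and the str summed log2 ratio was 0.87 when each library was divided by its summed FPKM.

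With 1 library left out, the medians ranged from 0.28 to 0.57 (str), 0.31 to 0.53 (srh) and 0.37 to 0.52 (sri). Those fits have 1 library in a genotype, so their 0 calls among members say nothing about stability. The sign of the log2 fold change turned in 8, 2, 6 and 4 of the 62 members without the first mutant, second mutant, first wild-type and second wild-type library, and in 3 with median-ratio scaling. Of the named genes, str-7 ranged from -0.52 to 0.81 and srh-237 from -0.21 to 0.0032 with 1 library left out. With the replicate block, 0 members were called and the medians were the same (0.46, 0.41 and 0.51), while calls over all genes dropped to 0 from 252; the differences between replicates of the 2 genotypes correlated at -0.06 across all genes tested, so the numbers were not shown to pair the libraries. Depth limits single genes: counting error alone is roughly 17.2% to 19.5% of a median member's value in 1 library.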
